A study of Mus musculus with 5 samples.

Results

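Gene deserts are long stretches of a chromosome without a protein-coding gene. Here they were the stretches of chromosomes 1 to 19 that lie 200 kb or more from the span of every protein-coding gene and start no earlier than 5 Mb along the chromosome, and a desert peak was an ATRX peak whose summit falls in one. There were 110230 such peaks among the 651098 peaks of 4 lists. The deserts numbered 717 and added up to 454 Mb, which is 19.2% of the 2366 Mb considered, with a median length of 352880 bp and a longest of 4142305 bp. Gene spans and the 5 Mb start set the bounds of the deserts: 0 of the 717 ended where a chromosome was taken to end, so no peak position set a bound. Of the 717 deserts, 278 were 500 kb or longer, 140 were 1 Mb or longer and 19 were 3 Mb or longer.

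ATRX is a chromatin remodeller of the SWI/SNF family that works with the histone chaperone DAXX to place histone H3.3 at telomeres, centromere-near repeats and other heterochromatin, and it also binds G-rich tandem repeats and some gene bodies. Loss of its function in humans causes a syndrome with intellectual disability and alpha-thalassaemia. Gene deserts are mostly late replicating and poor in G and C; many lie at the nuclear lamina, and those beside developmental genes often carry distant enhancers and long noncoding RNA (lncRNA) genes.

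The 4 libraries were chromatin immunoprecipitations with an ATRX antibody followed by sequencing (ChIP-seq), all from primary neurons of C57BL6/J mouse embryos of stage E15.5 to E17.5, and all given lentivirus on day 5 of culture. The first carried TBC1D3, a gene found in hominoids and not in mice, and its cells were harvested on day 14 of culture (DIV14). The second carried MICAL1-M1, also at DIV14; MICAL1 is an enzyme that oxidises actin filaments, and the meaning of M1 was not among the sources used here. The third expressed the fluorescent protein mCherry and came from DIV7 cultures. The control expressed mCherry and came from DIV14 cultures. Each group is 1 library, so no difference between libraries has a replicate error or a test, and the 95% intervals below (exact Poisson for densities, exact binomial for shares) cover counting error only. The sources used here give neither the promoter of the virus nor whether embryos were pooled. Peak lists hold no RNA values, so the neuron label was not checked against markers, and in whole cultures a change in the mix of cells and a change within cells cannot be told apart.

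The lists differ in size and depth. The TBC1D3 list holds 199059 peaks, the MICAL1-M1 list 141387, the mCherry DIV7 list 213982 and the control list 96670. Read totals were not analysed here, but the fold and p of each peak give back a whole number of fragments over a background. This genome background was 1.22 fragments in the TBC1D3 library, 2.61 in the MICAL1-M1 library, 1.28 in the mCherry DIV7 library and 3.56 in the control, so the control was the deepest library by this measure and has the shortest list. The peaks of the MICAL1-M1 list carry names that begin with M2, and the label of the sample was kept. All lists hold peaks up to an uncorrected p of 0.05. Peaks with a q no higher than 0.05 made up 0.205% of the TBC1D3 list, 0.463% of the MICAL1-M1 list, 0.236% of the mCherry DIV7 list and 4.19% of the control list.

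Most desert peaks lie in sequence without an annotated gene, so the sequences shown first are the few annotated starts that they cover. Promoter windows ran from 250 bases before to 50 after a start of transcription (RefSeq, GRCm38.p6), and 1015 of them lie in deserts. TBC1D3 peaks met 55 of the 1015, MICAL1-M1 peaks 71, mCherry DIV7 peaks 93 and control peaks 75. By number of lists, 767 were met by none, 208 by 1, 34 by 2, 6 by 3 and 0 by all 4. All of the 6 are starts of unnamed lncRNA genes. The same counts over all promoter windows are not given here, so whether 0 and 6 are unusual was not tested. The window of Gm6145, an lncRNA gene between Ndfip2 and Spry2 at chr14:105631275-105631574 on the minus strand, held the summit of the MICAL1-M1 desert peak of highest fold. The window of Gm26901, between Pcmtd1 and Sntg1 at chr1:7398047-7398346 on the minus strand, was the one of the 6 with the most CG pairs. The window of Gm35671, between Klf6 and Pitrm1 at chr13:6307318-6307617 on the plus strand, was met by a control peak with a q under 0.05. They are given 5′ to 3′ with each CG pair in capitals.
Gm6145: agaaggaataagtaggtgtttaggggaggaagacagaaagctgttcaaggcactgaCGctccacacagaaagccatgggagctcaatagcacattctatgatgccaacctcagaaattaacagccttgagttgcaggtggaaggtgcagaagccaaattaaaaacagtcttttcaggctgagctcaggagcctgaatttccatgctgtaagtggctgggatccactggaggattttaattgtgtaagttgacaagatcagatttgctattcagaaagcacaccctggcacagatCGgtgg
Gm26901: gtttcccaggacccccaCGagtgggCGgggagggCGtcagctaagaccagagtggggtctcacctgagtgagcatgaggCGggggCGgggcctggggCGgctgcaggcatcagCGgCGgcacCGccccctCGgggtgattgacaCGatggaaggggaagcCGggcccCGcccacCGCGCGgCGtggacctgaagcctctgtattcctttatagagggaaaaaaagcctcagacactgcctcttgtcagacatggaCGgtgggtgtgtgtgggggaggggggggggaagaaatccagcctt
Gm35671: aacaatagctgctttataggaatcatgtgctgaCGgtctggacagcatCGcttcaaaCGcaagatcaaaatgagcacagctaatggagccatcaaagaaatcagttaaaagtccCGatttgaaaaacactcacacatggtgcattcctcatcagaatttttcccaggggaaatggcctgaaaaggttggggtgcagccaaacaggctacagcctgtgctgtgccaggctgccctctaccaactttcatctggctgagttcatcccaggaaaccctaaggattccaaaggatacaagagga
CG occurs 2 times in the Gm6145 window, 18 times in the Gm26901 window and 4 times in the Gm35671 window. At least 18 CG pairs are found in 0.887% of desert windows and in 29.7% of all 32851 promoter windows of the table, and at least 2 in 66.6% of desert windows and in 85.9% of all windows. The median desert window had 44% G and C and 2 CG pairs, against 52.7% and 7 over all windows. The Gm26901 start is thus among the CG-richest of the desert starts, while the Gm6145 start is at the desert median.

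At Gm6145 the MICAL1-M1 peak ran over 2620 bp (chr14:105631235-105633854) with a fold over local background of 4.43 and a q of 0.00154. The control peak there ran over 2488 bp with a fold of 3.72 and a q of 0.00701, the TBC1D3 peak over 339 bp with a fold of 1.80 and a q of 1, and the mCherry DIV7 list had no peak in the window. Folds are the authors' values and rank peaks within a list only. At Gm26901 the MICAL1-M1, mCherry DIV7 and control peaks had folds of 1.93, 1.83 and 2.69, and at Gm35671 the TBC1D3, mCherry DIV7 and control peaks had folds of 3.60, 2.63 and 3.29. The q of the control peak at Gm35671 was 0.0470, and that of the TBC1D3 peak was 0.457.

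Deserts also hold 50 annotated miRNA genes, among them the paired clusters that bring together members of the miR-99/100, let-7 and miR-125 families, which act in the timing of development and in neuronal differentiation. One cluster (Mir99a, Mirlet7c-1, Mir125b-2) lies in the desert between Usp25 and Cxadr at chr16:77316783-78101226, and the other (Mir100, Mirlet7a-2, Mir125b-1) in the desert between Ubash3b and Gm40514 at chr9:41361692-41706023. Their mature sequences (RefSeq, GRCm38.p6) are shown with the seed, bases 2 to 8, in capitals.
mmu-miR-99a-5p: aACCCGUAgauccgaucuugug
mmu-miR-100-5p: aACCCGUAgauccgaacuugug
mmu-let-7c-5p: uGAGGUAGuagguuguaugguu
mmu-miR-125b-5p: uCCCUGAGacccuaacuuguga
The first pair, 1 from each cluster, shares the seed ACCCGUA. The Usp25 to Cxadr desert had 76.5 summits per Mb in the TBC1D3 library, 161 in the MICAL1-M1 library, 107 in the mCherry DIV7 library and 112 in the control, and the Ubash3b to Gm40514 desert had 81.3, 166, 98.7 and 98.7 in the same order. The MICAL1-M1 library was the highest in both and the TBC1D3 library the lowest, with list size left in. In the Usp25 to Cxadr desert, the share of the list divided by the control's share was 0.984 for MICAL1-M1. It was 0.339 for TBC1D3 and 0.446 for mCherry DIV7. In the Ubash3b to Gm40514 desert the TBC1D3 interval (54.0 to 118) overlapped those of mCherry DIV7 and the control (both 68.4 to 138). The MICAL1-M1 interval there (125 to 214) also overlapped them.

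Within the Usp25 to Cxadr desert the span of the lncRNA gene Mir99ahg held 61.1 summits per Mb in the TBC1D3 library (95% interval 33.4 to 103), 218 in the MICAL1-M1 library (162 to 288), 105 in the mCherry DIV7 library (67.1 to 156) and 157 in the control (110 to 218). The intervals of the TBC1D3 library and the control do not overlap there. Of the 278 deserts of 500 kb or more, the one around this span ranked 4 in density in the control and 130 in the TBC1D3 library. The gap is thus read in a desert where the control was already high. In this annotation the span of Mir99ahg ends before the hairpins of the cluster. A MICAL1-M1 peak of 1395 bp (chr16:77598345-77599739, fold 2.53, q of 1) covered the Mir99a hairpin and most of the Mirlet7c-1 hairpin, and none of the other lists had a peak on either. The span of Mir100hg, which contains all 3 hairpins of its cluster, held 83.8 summits per Mb in the TBC1D3 library (51.2 to 129), 168 in the MICAL1-M1 library (120 to 228), 79.6 in the mCherry DIV7 library (47.9 to 124) and 109 in the control (71.2 to 160). All of these intervals overlap. Peaks of the Mir100hg span with a q no higher than 0.05 were 4 of 26 in the control. They were 0 of 20 in the TBC1D3, 0 of 40 in the MICAL1-M1 and 0 of 19 in the mCherry DIV7 library. Among all desert peaks 1.38% reached this q in the control, and 0.104%, 0.0845% and 0.115% in the other lists in that order. Counts of 0 in those lists therefore do not set this span apart, and whether 4 of 26 is unusual was not tested. Of the 4 control peaks, 1 (chr9:41446890-41447944, fold 4.38) ranked among the 5 desert peaks of highest fold in the control. No list had a peak on the Mir100, Mirlet7a-2 or Mir125b-1 hairpin.

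**Figure D1:**
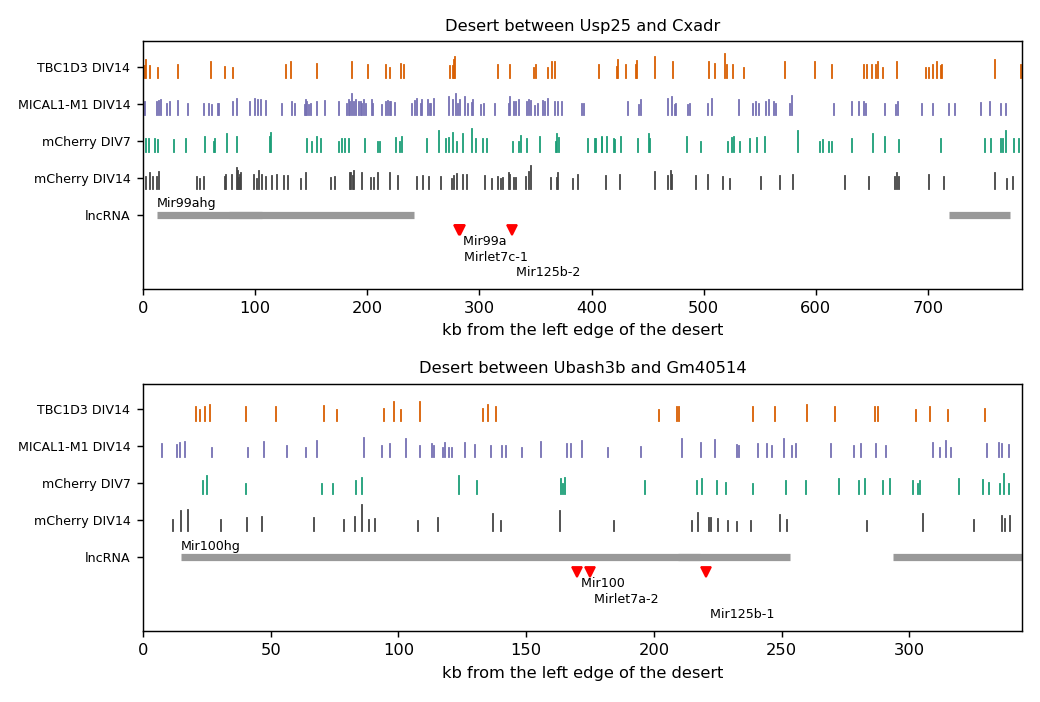
ATRX peaks across the deserts between Usp25 and Cxadr (top) and between Ubash3b and Gm40514 (bottom), by distance in kb from the left edge of the desert. Each tick is 1 peak at its middle, its height is the authors' fold (comparable within a row only), grey bars are lncRNA genes and red triangles miRNA hairpins. MICAL1-M1 ticks are the most numerous in both panels, at 126 and 57 peaks, against 88 and 34 in the control. The whole MICAL1-M1 list holds 141387 peaks and the control list 96670.

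The main comparison asked how densely each library's peaks fill the deserts. The TBC1D3 library had 35415 desert peaks, the MICAL1-M1 library 22479, the mCherry DIV7 library 39976 and the control 12360. Per Mb of desert these were 78.0 summits in the TBC1D3 library (77.2 to 78.8), 49.5 in the MICAL1-M1 library (48.9 to 50.2), 88.0 in the mCherry DIV7 library (87.2 to 88.9) and 27.2 in the control (26.7 to 27.7). Desert density was thus 2.87 times the control's in the TBC1D3 library, 1.82 times in the MICAL1-M1 library and 3.23 times in the mCherry DIV7 library. These folds depend on how many peaks are taken. With the 90000 peaks of lowest p from every list, the densities were 35.4 in the TBC1D3 library, 28.5 in the MICAL1-M1 library, 37.05 in the mCherry DIV7 library and 25.2 in the control. With p of at most 0.01 they were 52.9, 24.8, 30.1 and 16.5 in the same order, and among peaks whose q did not exceed 0.05 they were 0.0815, 0.0418, 0.101 and 0.377, so the control was then the highest. With all deposited peaks, the density outside deserts was 82.1, 60.8, 85.9 and 43.4 per Mb in the same order, so the other lists exceed the control there too, but by less: 1.89, 1.398 and 1.98 times.

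Desert density was then divided by the density of the rest of the same list, which sets each list against itself but does not free the value from list size, as the MICAL1-M1 ratio with equal lists shows below. This ratio was 0.950 in the TBC1D3 library (0.939 to 0.961), 0.815 in the MICAL1-M1 library (0.803 to 0.826), 1.03 in the mCherry DIV7 library (1.01 to 1.04) and 0.626 in the control (0.615 to 0.638). Relative to this rest, control peaks were therefore sparse in deserts, mCherry DIV7 peaks about as dense there as elsewhere, and the remaining lists in between. No interval overlaps another. The rest includes gene bodies. Control density was 53.5 per Mb inside genes but 32.5 under 50 kb outside them, and MICAL1-M1 density 70.6 and 47.5. TBC1D3 had 80.9 and 79.5, and mCherry DIV7 83.3 and 84.9. In the control and the MICAL1-M1 library, a density below that inside genes was thus not particular to deserts. As a share of the list, desert peaks made up 18.4% of the TBC1D3 list, 16.2% of the MICAL1-M1 list, 19.6% of the mCherry DIV7 list and 13.0% of the control list, while deserts are 19.2% of the bases. The ratio was lowest in the control on 19 of 19 chromosomes, and the mCherry DIV7 ratio lay above that of the MICAL1-M1 library on 19 and above that of the TBC1D3 library on 17. Control ratios ran from 0.457 on chromosome 17 to 0.939 on chromosome 13.

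**Figure D2:**
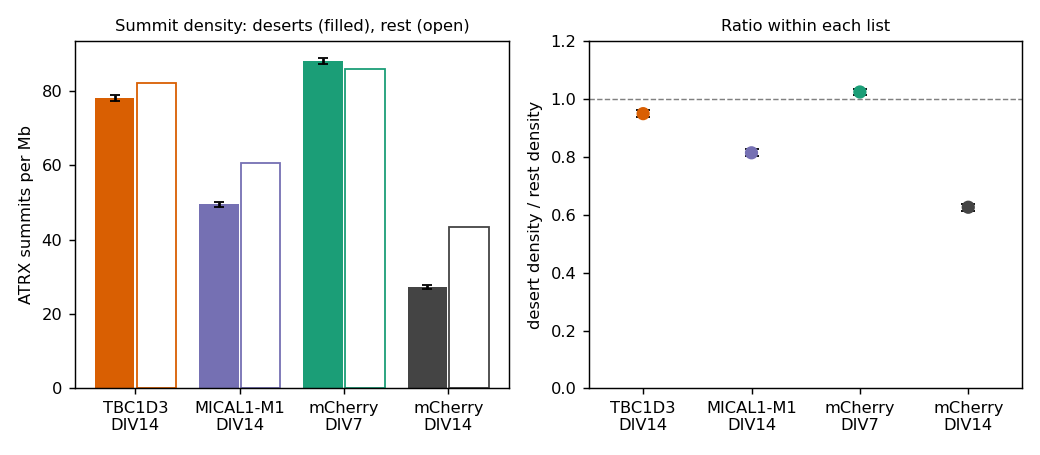
Left, ATRX summits per Mb in gene deserts (filled bars, with exact 95% Poisson intervals) and in the rest of chromosomes 1 to 19 (open bars) for each library. Right, the ratio of desert to rest density with exact 95% intervals and a dashed line at equal density; it was 0.950, 0.815 and 1.03 in the TBC1D3, MICAL1-M1 and mCherry DIV7 libraries and 0.626 in the control.

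Depth moved with this ratio. The deeper libraries, MICAL1-M1 and the control, had the lower ratios, and a median desert summit held 4 fragments in the TBC1D3 library, 7 in the MICAL1-M1 library, 4 in the mCherry DIV7 library and 9 in the control. The part of depth in the result was not tested. With 90000 peaks of lowest p taken from every list, the ratio was 0.955 in the TBC1D3 library, 0.722 in the MICAL1-M1 library, 1.02 in the mCherry DIV7 library and 0.624 in the control. Within the TBC1D3, MICAL1-M1 and control lists the strongest peaks had a lower ratio than the weaker ones, and within the mCherry DIV7 list a higher one. For the 10000 peaks of lowest p it was 0.888 in the TBC1D3 library (0.843 to 0.935), 0.422 in the MICAL1-M1 library (0.394 to 0.452), 1.09 in the mCherry DIV7 library (1.04 to 1.15) and 0.285 in the control (0.263 to 0.309). For the peaks ranked 30001 to 90000 it was 0.980, 0.793, 1.01 and 0.726 in the same order, so the lists lay farther apart at their strong end than at their weak end. Among the few peaks whose q did not exceed 0.05, the ratio was 0.824 in the TBC1D3 library, 0.140 in the MICAL1-M1 library, 0.694 in the mCherry DIV7 library and 0.189 in the control, from 37, 19, 46 and 171 desert peaks in the same order. In that selection MICAL1-M1, not the control, had the lowest ratio.

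The density of peaks also changed with the distance to the nearest gene. Under 50 kb from a gene it was 79.5 summits per Mb in the TBC1D3 library, 47.5 in the MICAL1-M1 library, 84.9 in the mCherry DIV7 library and 32.5 in the control. At 50 to 200 kb it was 89.0, 55.5, 94.1 and 34.2 in the same order. At 200 to 300 kb from a gene it was 87.2 summits per Mb in the TBC1D3 library, 56.8 in the MICAL1-M1 library, 94.6 in the mCherry DIV7 library and 33.7 in the control. No list was thus less dense at 200 to 300 kb than under 50 kb. At 1000 kb or more it was 68.0 (66.0 to 70.0), 37.2 (35.7 to 38.7), 83.9 (81.7 to 86.1) and 16.9 (15.9 to 17.9) in the same order. Set against the density inside genes of the same list, the farthest band reached 0.840 in the TBC1D3 library, 0.527 in the MICAL1-M1 library, 1.01 in the mCherry DIV7 library and 0.316 in the control. In every list density was lower at 1000 kb or more than at 200 to 300 kb. In the mCherry DIV7 library alone the farthest band matched the density inside genes within the intervals.

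Densities on the 2 sides of the distance that defines a desert were close. Summits 200 to 220 kb from a gene numbered 88.0 per Mb in the TBC1D3 library, 56.3 in the MICAL1-M1 library, 95.5 in the mCherry DIV7 library and 35.2 in the control. Just outside, at 180 to 200 kb, they numbered 87.6, 54.9, 93.1 and 34.4 per Mb in the same order.

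**Figure D3:**
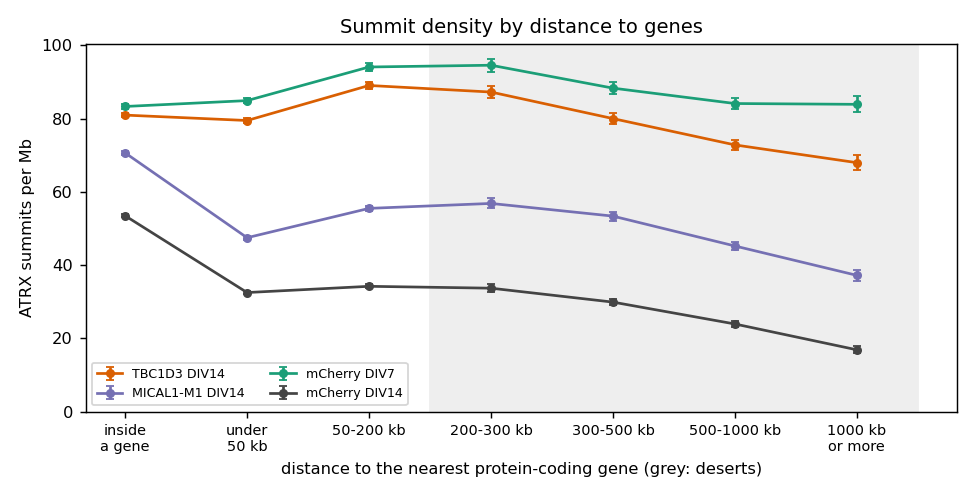
ATRX summits per Mb by distance to the nearest protein-coding gene for each library, with exact 95% Poisson intervals; the grey area is desert. The control falls to 16.9 per Mb at 1000 kb or more, where the TBC1D3, MICAL1-M1 and mCherry DIV7 libraries have 68.0, 37.2 and 83.9.

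Desert peaks were short and mostly weak. Their median length was 322 bp in the TBC1D3 library, 387 bp in the MICAL1-M1 library, 330 bp in the mCherry DIV7 library and 392 bp in the control, against 325, 408, 329 and 439 bp for the other peaks of the same lists. The share with a q no higher than 0.05 was 0.104% in the TBC1D3 library (37 peaks), 0.0845% in the MICAL1-M1 library (19), 0.115% in the mCherry DIV7 library (46) and 1.38% in the control (171). Outside deserts the shares were 0.120%, 0.491%, 0.170% and 4.59% in the same order. In the MICAL1-M1 library and the control, peaks of this strength were therefore scarcer in deserts than outside, with intervals that do not overlap. Peaks of 1500 bp or more made up 0.0113%, 0.320% and 0.0300% of desert peaks in the TBC1D3, MICAL1-M1 and mCherry DIV7 libraries and 0.696% in the control, and 0.0516%, 1.06%, 0.0408% and 2.80% of the other peaks.

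The strongest desert peaks, here ranked by fold, differed between lists. The peak of highest fold in the TBC1D3 library, at chr1:48881515-48881870 in the desert between Slc39a10 and Tmeff2, had a fold of 9.91, was 356 bp long and was met by no other list. At chr18:85697926-85698321, in the desert between Fbxo15 and Neto1, the TBC1D3 list had a peak with a fold of 9.33, and the mCherry DIV7 list had its strongest desert peak with a fold of 5.76. By p the order of these TBC1D3 peaks was reversed, with a −log10 p of 19.6 on chromosome 1 and 47.1 on chromosome 18. The TBC1D3 background at the chromosome 18 peak was 6.72 fragments, above the genome background of 1.22. At the chromosome 1 peak it was 1.22. Among the strongest desert peaks of the control, one of 2006 bp with a fold of 4.38 lay between Ptprd, a synaptic receptor phosphatase, and Tyrp1. A MICAL1-M1 peak met it, and neither of the TBC1D3 and mCherry DIV7 lists did. Each of the 5 strongest desert peaks of the control was met by a MICAL1-M1 peak.

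Neighbouring desert peaks stood a median of 8.38 kb apart in the TBC1D3 library, 10.9 kb in the MICAL1-M1 library, 7.55 kb in the mCherry DIV7 library and 14.3 kb in the control. The longest stretch of desert without a peak was 258 kb in the TBC1D3 library, 580 kb in the MICAL1-M1 library, 162 kb in the mCherry DIV7 library and 1258 kb in the control. Of the 717 deserts, 25, 46 and 21 were empty in those 3 lists and 76 in the control.

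Single deserts were compared over the 278 of 500 kb or more. The middle desert had 75.6 summits per Mb in the TBC1D3 library, 45.7 in the MICAL1-M1 library, 85.2 in the mCherry DIV7 library and 21.9 in the control. The spread among deserts differed more than the middle did. The desert at the 90th percentile was 1.76 times as dense as the one at the 10th in the TBC1D3 library, 4.19 times in the MICAL1-M1 library, 1.52 times in the mCherry DIV7 library and 9.18 times in the control. The control ran from 0 to 162 summits per Mb, and the mCherry DIV7 library from 33.6 to 161. Control deserts hold the fewest peaks and so have the widest counting error for their size; its part in the spread was not tested.

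**Figure D4:**
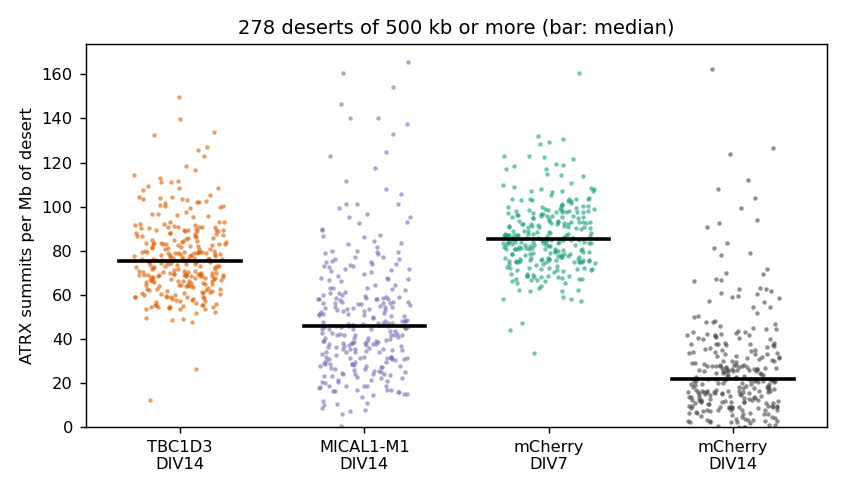
Density of ATRX summits per Mb in each of the 278 deserts of 500 kb or more (1 point per desert) for each library, with the median as a bar. The medians are 75.6, 45.7 and 85.2 in the TBC1D3, MICAL1-M1 and mCherry DIV7 libraries and 21.9 in the control, whose points reach from 0 to 162.

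Across these deserts the densities of the MICAL1-M1 library and the control ran closest together, with a Pearson r of 0.911 and a Spearman rho of 0.908 (n = 278 deserts). The r was 0.669 between the TBC1D3 library and the control, 0.450 between the mCherry DIV7 library and the control, 0.638 between TBC1D3 and MICAL1-M1, 0.563 between TBC1D3 and mCherry DIV7, and 0.389 between MICAL1-M1 and mCherry DIV7. Deserts of a genome share base composition and mappability in all libraries, the deeper libraries are the pair with the highest r, and deserts are no replicates of a condition.

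As a share of its own list, a desert was called when it differed by 1.5-fold or more from the control. In the TBC1D3 library 159 of the 278 deserts were higher, which is 57.2%, against 29.1% of 2356 bins of 1 Mb over the same chromosomes. In the MICAL1-M1 library 112 were higher, which is 40.3%, against 14.8% of bins. In the mCherry DIV7 library 163 were higher, which is 58.6%, against 30.2% of bins. Deserts lower than the control by 1.5-fold or more numbered 14 in the TBC1D3 library (5.04%, against 14% of bins), 2 in the MICAL1-M1 library (0.719%, against 3.10%) and 22 in the mCherry DIV7 library (7.91%, against 16.2%). In each comparison the share of deserts called higher lay above that of the bins and the share called lower lay below it. The 3 comparisons share the control list.

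Many of the longest deserts lie beside genes of cell adhesion. Of the 10 longest, 7 have a gene of the adhesion group on at least one side, a list of cadherins, protocadherins, contactin-associated proteins, teneurins and other cell-surface organisers of synapses, while 59 of all 278 deserts (21.2%) do. The longest lies between Pcdh20 and Pcdh9, protocadherins, at chr14:88671396-92813700, and had 65.2 summits per Mb in the TBC1D3 library, 41.8 in the MICAL1-M1 library, 80.6 in the mCherry DIV7 library and 26.6 in the control. The desert between Dsel and Cntnap5a, at chr1:112065052-115484737, had 76.3, 17.0, 97.4 and 7.90 per Mb in the same order, which is 261, 58, 333 and 27 peaks. The control and MICAL1-M1 lists were thinner there than in any other of the 10. Between Slc39a10 and Tmeff2 (chr1:47125776-50700683) the densities were 71.6, 26.9, 101 and 10.9 per Mb.

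The remaining adhesion deserts of the 10 followed the same order of libraries. Between Tenm3, a teneurin, and Aga (chr8:49722824-53311683) the densities were 55.4 in the TBC1D3 library, 33.2 in the MICAL1-M1 library, 68.3 in the mCherry DIV7 library and 9.47 in the control. Between Cntnap5b and Cdh20 (chr1:100690599-104568340) they were 77.1, 26.6, 92.1 and 11.3, between Pcdh7 and G6pd2 (chr5:58333236-61608843) 68.4, 26.0, 77.2 and 11.6, and between Olfm4 and Pcdh17 (chr14:80223141-84243563) 70.9, 40.5, 86.1 and 18.2. Between Lrrc4c, which encodes the netrin-G ligand NGL-1, and Iftap (chr2:97831672-101360779) they were 78.8, 44.5, 104 and 22.95. In all 10 the control was the lowest and the mCherry DIV7 library the highest.

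The desert between Celf4, an RNA-binding protein of neurons, and Pik3c3, a lipid kinase of autophagy, at chr18:25954520-30065615, and the desert between Zeb2, a transcription factor of cortical development, and Acvr2a, an activin receptor, at chr2:45317442-48614109, stood apart among the 10. The Celf4 to Pik3c3 desert had 79.3 summits per Mb in the TBC1D3 library, 74.9 in the MICAL1-M1 library, 86.6 in the mCherry DIV7 library and 44.5 in the control, and the Zeb2 to Acvr2a desert 68.9, 77.4, 82.5 and 37.9. These were the highest control and MICAL1-M1 densities of the 10, and they hold 14 and 9 lncRNA genes.

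**Figure D5:**
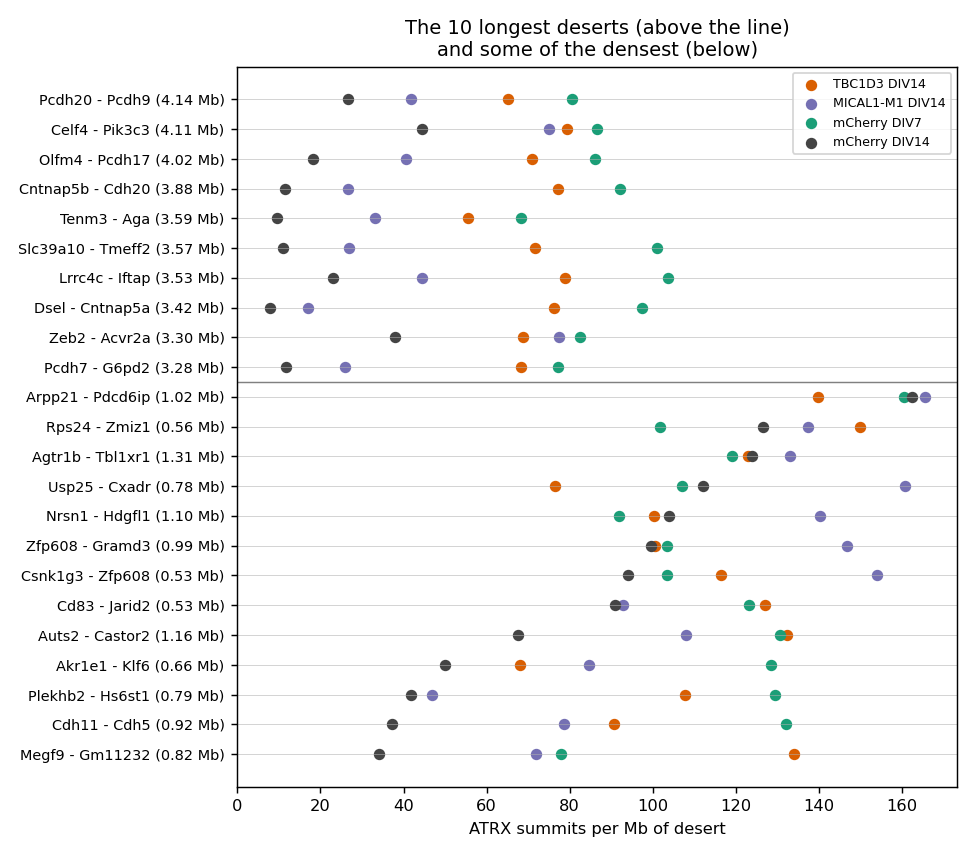
ATRX summits per Mb in the 10 longest deserts (above the line, by length) and in deserts from among the 5 densest of any library (below it, by control density), 1 point per library. In the 10 longest the control runs from 7.90 to 44.5 and lies left of the TBC1D3, MICAL1-M1 and mCherry DIV7 points; between Arpp21 and Pdcd6ip all 4 points lie between 140 and 165.

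The densest deserts were shorter, and in some of them the libraries came together. The desert between Arpp21, a phosphoprotein of forebrain neurons, and Pdcd6ip (also called ALIX, a protein of membrane scission), at chr9:112436288-113451744, had 140 summits per Mb in the TBC1D3 library, 165 in the MICAL1-M1 library, 161 in the mCherry DIV7 library and 162 in the control. It ranked first of the 278 deserts in every list except that of TBC1D3, where it ranked second. Between Agtr1b, an angiotensin receptor, and Tbl1xr1, a corepressor subunit (chr3:20567177-21876253), the densities were 123, 133, 119 and 124, which lie within each other's intervals. In both deserts the control, the shortest list, was about as dense as the longer ones.

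Elsewhere among the densest deserts the libraries differed more. The counting interval of the highest library stood clear of those of all the others only between Megf9 and Gm11232. Each desert was named for being among the 5 densest of at least 1 list, so a lead of that list was favoured in advance. That list was TBC1D3 between Megf9 and Gm11232, mCherry DIV7 between Cdh11 and Cdh5, and MICAL1-M1 for the deserts beside Zfp608 and Nrsn1. Between Rps24 and Zmiz1 the lists were TBC1D3 and the control. Between Rps24, a ribosomal protein, and Zmiz1, a transcriptional coregulator (chr14:24696960-25257875), the densities were 150 in the TBC1D3 library, 137 in the MICAL1-M1 library, 102 in the mCherry DIV7 library and 127 in the control. Between Megf9 and Gm11232 (chr4:70734928-71555746) the TBC1D3 library had 134 per Mb (110 to 162) and the MICAL1-M1 library 71.9, the mCherry DIV7 library 78.0 and the control 34.1. Between Cdh11 and Cdh5, both cadherins (chr8:102985493-103901613), the TBC1D3 library had 90.6, the MICAL1-M1 library 78.6, the mCherry DIV7 library 132 and the control 37.1. The deserts on either side of Zfp608, a zinc finger gene, were led by MICAL1-M1, with 116, 154, 103 and 93.9 toward Csnk1g3 and 101, 147, 104 and 99.5 toward Gramd3. Between Nrsn1, a neuronal vesicle protein, and Hdgfl1 (chr13:25469996-26568172) MICAL1-M1 led again, with 100.2, 140, 92.0 and 104. As a share of its list relative to the control, MICAL1-M1 had 1.12 toward Csnk1g3, 1.01 toward Gramd3 and 0.929 beside Nrsn1.

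The sparsest deserts were named after their values were seen, and some of them held arrays of similar genes. Between Adam6a and Zfp386 (chr12:113746414-115847714) lie the variable segments of the antibody heavy chain, and the desert had 26 peaks in the TBC1D3 library, 1 in the MICAL1-M1 library, 93 in the mCherry DIV7 library and 1 in the control. Between Gm51483 and Ndn, an imprinted neuronal gene (chr7:61313704-62148277), lie 13 miRNA genes of the Mir344 family, and the lists had 22, 5, 28 and 0 peaks. Reads of near-identical copies can be dropped or split in alignment, and how the authors handled them was not given here; the part of this in the low counts was not tested.

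Deserts were also grouped by the genes beside them, among those of 500 kb or more. The 59 deserts beside adhesion genes had 69.7 summits per Mb in the TBC1D3 library, 39.3 in the MICAL1-M1 library, 82.9 in the mCherry DIV7 library and 18.6 in the control, against 74.9, 47.2, 86.0 and 25.1 over all 278. The 35 beside developmental transcription factor genes had 80.5, 63.9, 89.8 and 35.1. The 18 beside ion channel and neurotransmitter receptor genes had 74.5, 39.8, 86.5 and 21.1, the 15 beside axon guidance genes 76.7, 51.9, 81.8 and 28.4, and none lay beside an olfactory or vomeronasal receptor gene. Adhesion deserts were thus the thinnest in the control, and transcription factor deserts the densest of these groups in each of the 4 lists.

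Length moved with these groups: the median desert was 1.84 Mb long beside adhesion genes and 0.796 Mb beside transcription factor genes. Among deserts of 500 kb to 1 Mb, the 15 adhesion deserts had 70.6 summits per Mb in the TBC1D3 library, 42.6 in the MICAL1-M1 library, 87.6 in the mCherry DIV7 library and 22.3 in the control, and the 23 transcription factor deserts had 80.8, 62.7, 91.6 and 34.1. Within this length class adhesion deserts were thinner than transcription factor deserts in every list. All 138 deserts of the class had 80.3, 54.0, 87.5 and 30.9, so the mCherry DIV7 adhesion value was not below that of the class. At 1 to 2 Mb the 17 adhesion deserts had 69.5, 40.3, 80.5 and 18.4, against 75.9, 49.1, 86.9 and 26.3 over all 87. At 2 Mb or more the 27 had 69.7, 38.5, 83.1 and 18.1, against 70.5, 41.0, 84.2 and 20.1 over all 53. In the control the transcription factor desert between Tbc1d2b and Zic1 had 0 summits per Mb and the adhesion desert between Lrrtm4 and Gcfc2 had 58.5, so the groups overlap. By length alone, deserts under 500 kb had 90.6 summits per Mb in the TBC1D3 library, 59.0 in the MICAL1-M1 library, 96.5 in the mCherry DIV7 library and 36.1 in the control, and deserts of 3 Mb or more had 71.1, 39.5, 84.1 and 20.1.

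Noncoding genes take up part of the deserts. Spans of lncRNA genes covered 9.45% of desert bases and held the summits of 10.5% of TBC1D3 desert peaks (10.2 to 10.8), 12.9% of MICAL1-M1 desert peaks (12.5 to 13.3), 9.88% of mCherry DIV7 desert peaks (9.59 to 10.2) and 15.4% of control desert peaks (14.8 to 16.1). The control's share was the highest and that of mCherry DIV7 the nearest to the share of bases. Pseudogenes covered 0.880% of desert bases and held 0.9996%, 0.565% and 1.07% of desert summits in the TBC1D3, MICAL1-M1 and mCherry DIV7 libraries and 0.405% in the control, so here MICAL1-M1 and the control fell below the share of bases.

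Few desert peaks were shared between lists. Of the 12360 control desert peaks, 9.42% overlapped a TBC1D3 peak by at least 1 bp, 14.03% a MICAL1-M1 peak and 9.24% an mCherry DIV7 peak. With 90000 peaks from every list these shares were 4.62%, 10.3% and 4.07%, so each of them depended on the length of the lists. Taken the other way, 3.31% of TBC1D3, 7.77% of MICAL1-M1 and 2.88% of mCherry DIV7 desert peaks overlapped a control peak, against 7.17%, 17.4% and 6.54% of their peaks outside deserts. Control peaks outside deserts were met more often, at 13.2%, 23.8% and 12.5%. The bases of desert covered by peaks were 2.85% with TBC1D3, 2.23% with MICAL1-M1 and 3.33% with mCherry DIV7 peaks, so the MICAL1-M1 list met the most control desert peaks while covering the least of the deserts among these 3. Base coverage serves only to order the lists. It is not the share of peaks expected to be met, because 1 bp anywhere along a peak counts as an overlap. Peaks met by no other list made up 83.1% of TBC1D3, 77.7% of MICAL1-M1, 85.4% of mCherry DIV7 and 72.2% of control desert peaks, against 78.7%, 67.6%, 81.0% and 62.3% of the peaks outside deserts in the same order.

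Only 46 of the control desert peaks, 0.372%, were met by all 3 other lists, and at 20 of these the 4 peaks share a base. Outside deserts 1.85% of control peaks were met by all 3. The common place with the highest minimum fold lies between Zfp608 and Gramd3 at chr18:55552211-55553083, with folds of 2.71 in the TBC1D3 library, 2.49 in the MICAL1-M1 library, 2.63 in the mCherry DIV7 library and 2.63 in the control. The second lies between Fat4, a giant protocadherin, and Intu (chr3:40093401-40094140), and the third between Enc1 and Arhgef28 within the lncRNA gene Lncenc1 (chr13:97485966-97486565). None of the peaks at the 10 common places of highest minimum fold reached a q of 0.05 in its own list.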

How the data were processed

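ATRX ChIP-seq peaks of mouse neurons were analysed, 1 deposited list for each of 4 libraries (the input sample was not used). Chromatin was prepared with an enzymatic kit and read from both ends, with input DNA as background, per the labels' protocols. The tools were ChIPseeker 1.26.2, MACS 1.4.2, SAMtools 1.9 and Bowtie 1.3.0, per the submitters' processing notes; their settings and the build were not given in the sources used here. The deposited score is the whole part of 10 times the −log10 of p. The deposited fold is a ratio of pileup to local background, and the deposited −log10 values are those of p and q; these meanings were read from the narrowPeak layout, which MACS 1.4.2 is not known to write.

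Protein-coding spans (20665 genes) were read from RefSeq (GRCm38.p6), and a chromosome was taken to end at its last peak or gene. Densities, intervals, overlaps (at least 1 bp) and fragments recovered from fold and p (within 0.001 in log10 p) were computed in Python 3.11.15 with pandas 2.3.3 and scipy 1.17.1, and checked on simulated lists. For calls, 0.5 was added to each count. Ties in p were broken in a seeded random order. No genome sequence was used, so base composition and mappability of desert peaks were not measured. Regions were named as the 10 longest deserts, the 5 densest per list, the 5 desert peaks of highest fold per list and up to 10 places common to all lists; the groups of flanking genes are lists of symbols. Some of the regions so named are not reported here. Members and lists were chosen with earlier results of these data known. Alternatives concerned the distance to genes, the gene set, the chromosome start, p and q thresholds, list size, uncovered bins, antibody gene regions, minimum overlap, fold and desert size.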

Additional observations from a re-analysis of the deposited data

Results flagged for a closer look

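Chromosome X was outside the rule for desert peaks. Its 71 deserts, defined in the same way, add up to 35.1 Mb and had 22.1 summits per Mb in the TBC1D3 library (20.6 to 23.8), 6.06 in the MICAL1-M1 library (5.27 to 6.93) and 34.7 in the mCherry DIV7 library (32.8 to 36.8), each above the 1.25 of the control (0.910 to 1.68). The rest of chromosome X had 21.2, 8.34, 35.3 and 2.75 summits per Mb in the same order, so the control was the lowest there too. No test between libraries was possible with 1 library per group.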

How the results depend on the processing

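Desert densities per Mb and ratios to the rest are given for the TBC1D3, MICAL1-M1 and mCherry DIV7 libraries and then the control. With 100 kb as the distance to genes they were 81.3, 51.7, 89.9 and 29.3 (ratios 1.001, 0.844, 1.06 and 0.659), with 500 kb 71.2, 42.6, 84.0 and 21.6 (0.866, 0.709, 0.971 and 0.514), and with every annotated gene excluded 70.2, 41.2, 84.5 and 20.8 (0.861, 0.697, 0.979 and 0.509). With 90000 peaks per list densities were 35.4, 28.5, 37.0 and 25.2, and the MICAL1-M1 ratio was 0.722. With p of at most 0.01, an alternative chosen after seeing the data, they were 52.9, 24.8, 30.1 and 16.5 (0.967, 0.715, 1.004 and 0.559), so TBC1D3 was then denser than mCherry DIV7. With q of at most 0.05 they were 0.0815, 0.0418, 0.101 and 0.377 (0.824, 0.140, 0.694 and 0.189): the control then had the highest density, the MICAL1-M1 ratio was below the control's, and that of TBC1D3 lay above that of mCherry DIV7; the cause was not tested, and 37, 19, 46 and 171 desert peaks are behind these values. In each of the other alternatives the control had the lowest ratio and mCherry DIV7 the highest. A chromosome start of 10 Mb, uncovered 50 kb bins taken out, and deserts with antibody or T cell receptor segments left out (chosen after seeing the data) moved no density or ratio beyond its interval.

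Control desert peaks met by TBC1D3, MICAL1-M1 and mCherry DIV7 peaks were 3.92%, 7.15% and 3.89% with an overlap of 50% of the peak, 0.585%, 2.34% and 0.585% with q of at most 0.05 and 4.62%, 10.3% and 4.07% with 90000 peaks per list. Deserts higher than the control by 2-fold numbered 105 in the TBC1D3 library, 52 in the MICAL1-M1 library and 119 in the mCherry DIV7 library, and lower ones 6, 0 and 9. Among deserts of 1 Mb or more, 89, 61 and 92 were higher and 4, 0 and 3 lower by 1.5-fold. No paired analysis was possible because each group has 1 library. Depth limits the comparison: the median desert summit rests on 4 to 9 fragments.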
